A study of Rattus norvegicus with 28 samples.

Results

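Amino acid and neurotransmitter transporters carry amino acids, taurine, creatine and amino acid transmitters across cell membranes. The set described here held every gene whose probe set annotation named it as a numbered gene of solute carrier families 1, 3, 6, 7, 36, 38 or 43 and that had a probe set analysed here; Slc6a12 was left out by the rule. This gave 50 genes on 68 probe sets, of 14217 genes on the arrays with a symbol of their own. Families 6 and 7 held 14 genes each, family 38 held 9, family 1 held 6, family 36 held 3, and families 3 and 43 held 2 each. The rule used names only and no measured value, though it was set with earlier results of these data known. A gene with several probe sets (11 of the 50) was read from the one with the highest mean over all arrays.

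In the kidney the proximal tubule takes back nearly all filtered amino acids. They enter through carriers of the brush border, the folded membrane that faces the filtrate, and leave to the blood through carriers of the basolateral membrane. Several work as pairs: a heavy chain, Slc3a1 in the brush border or Slc3a2 in the basolateral membrane, brings a light chain of family 7 to the surface and the light chain does the transport. Other carriers supply the cell itself. Some of these are induced through the transcription factor Atf4, which is made when amino acids run short or the endoplasmic reticulum is under stress.

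Messenger RNA was measured in whole kidney of female Sabra rats aged 5 months on standard chow. The normotensive strain SBN/y and the hypertension-prone strain SBH/y were each studied with 2 kidneys, after a sham operation, and 4 months after removal of the right kidney (uninephrectomy), with 7 arrays in each of the 4 groups. The series asks about proteinuria. The labels do not say that each array is a separate animal, so the spread behind each p-value is that between samples, which may be partly technical. All rats were females of inbred lines, so a strain difference covers every locus at which the lines differ.

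Values were deposited log2 intensities. A difference is given in log2 units ± the standard error (SE) of the limma model, the values of a group as its lowest, median and highest array, and a call is an adjusted p below 0.05 after Benjamini-Hochberg adjustment over all 31042 probe sets. Array medians lay between 5.72 and 5.77, and 2 arrays correlated at 0.985 to 0.997 over all probe sets. Of the 50 genes, 24 had a mean above the lowest array median and 26 below it; these are called dim here. Among the dim genes were Slc6a2, Slc6a3 and Slc6a4, the carriers of noradrenaline, dopamine and serotonin. All 5 nerve markers (Th, Dbh, Snap25, Syt1 and Nefl) also had means below the array medians. In whole tissue, fewer cells of a type and less RNA per cell cannot be told apart.

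**Figure D1:**
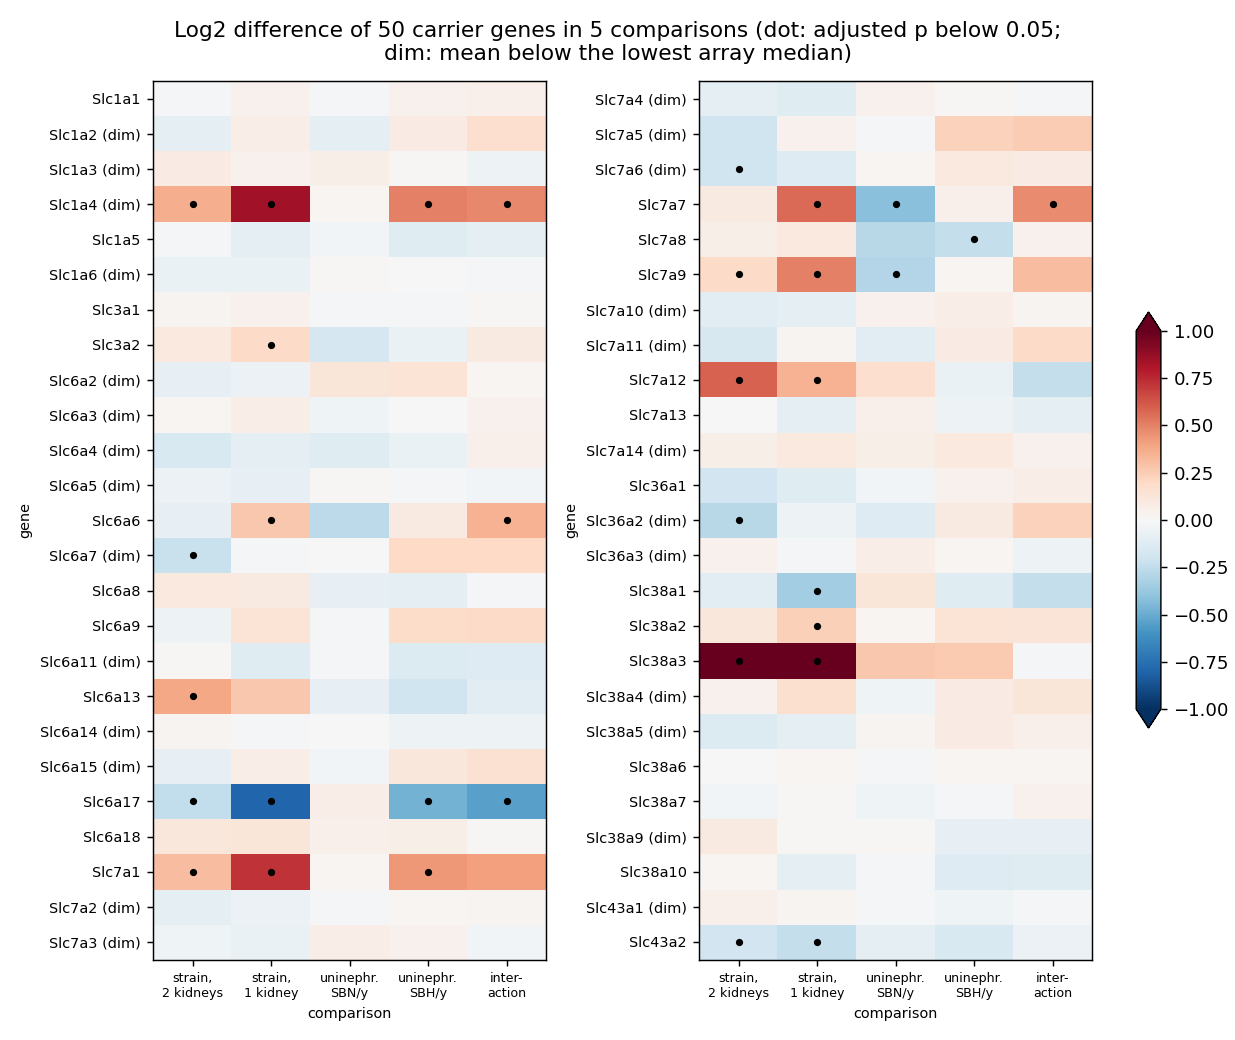
Log2 differences of the 50 transporter genes (rows) in the 5 comparisons (columns), with colour for size and direction and a dot where the adjusted p was below 0.05. Dim genes are marked. Slc38a3 stands out in both strain columns, and the 2 columns of uninephrectomy hold 2 and 4 dots.

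The strains differed in about as large a share of the carriers as of all genes. With 2 kidneys, 11 of the 50 carriers (22.0%) were called, against 21.5% of all 14217 genes. Of these, 6 were higher in SBH/y than in SBN/y and 5 lower, against 11.8% of genes higher and 9.69% lower. Among the 24 brighter carriers 7 (29.2%) were called, against 26.3% of genes at or above the lowest array median. After uninephrectomy 12 of 50 carriers were called between the strains, 9 higher in SBH/y and 3 lower, against 26.8% of genes, with 14.9% higher and 11.9% lower. Here 11 of the 24 brighter carriers (45.8%) were called, against 33.6% of such genes. The groups of 7 did not overlap for 4 carriers with 2 kidneys (8.53% of all genes) and for 7 after uninephrectomy (11.8% of all genes). The median carrier differed by -0.01 and 0.02 between the strains, and the median gene by -0.01 and 0.00. Between the comparisons, 7 carriers were called in both, 4 only with 2 kidneys and 5 only after uninephrectomy; these counts do not test whether the strain difference depended on the operation.

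Uninephrectomy moved few carriers. In SBN/y 2 of 50 (4.0%) were called, both lower, against 0.605% of all genes, with 0.288% higher and 0.317% lower. Both were brighter carriers (8.33% of 24, against 0.812% of such genes). In SBH/y 4 (8.0%) were called, 2 higher and 2 lower, against 10.4% of all genes, with 4.85% higher and 5.51% lower. Of the brighter carriers 3 (12.5%) were called, against 13.1% of such genes. Groups did not overlap for 1 carrier in each strain, Slc7a9 in SBN/y and Slc1a4 in SBH/y (0.556% and 2.68% of all genes). The effect itself differed between the strains for 4 carriers (8.0%), 3 with the more positive effect in SBH/y and 1 with the more negative, against 2.06% of genes, 0.964% and 1.1% by direction. Of these, 3 were brighter carriers (12.5%, against 2.73%). Median centring of the arrays left 1 and 1 of the 4, and quantile normalization gave 5 and 1. Comparisons that share a group of arrays are not independent, and each is given with its own values.

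Clock phase moved with the groups and touches every comparison, that between the strains with 2 kidneys included. The clock genes Nr1d1, Nr1d2 and Per3 were called lower in SBH/y with 2 kidneys. A score, the mean over 11 clock genes of the log2 value centred over the arrays, with the sign turned for the 8 genes of opposite phase to the other 3, was -0.28 to 0.47 in SBN/y and 0.44 to 0.68 in SBH/y with 2 kidneys. It ran from -0.89 to 0.59 in uninephrectomized SBN/y, where replicate 6 was the 1 array below -0.5. In uninephrectomized SBH/y it ran from -1.21 to 0.66, and 6 of the 7 arrays lay below -0.5, all but replicate 2. With the score as a covariate, a setting chosen after seeing the data, limma called 0 carriers for uninephrectomy in SBH/y (7 at an unadjusted p below 0.05) and 0 for the difference between the effects (6 at an unadjusted p below 0.05). It called 9 between the strains both with 2 kidneys and after uninephrectomy. Between the strains the covariate ended the calls of Slc7a9 (0.20, adjusted p = 0.0584) and Slc6a13 (0.26, adjusted p = 0.119) with 2 kidneys. After uninephrectomy it ended those of Slc3a2 (0.18, adjusted p = 0.0906), Slc6a6 (0.18, adjusted p = 0.155), Slc38a2 (0.25, adjusted p = 0.158) and Slc43a2 (-0.21, adjusted p = 0.0734), and Slc6a13 was then called (0.49, adjusted p = 0.00916). A call can end through a smaller estimate or a wider SE. After uninephrectomy the covariate took Slc3a2 from 0.19 ± 0.05 to 0.18 ± 0.07 and Slc38a2 from 0.24 ± 0.09 to 0.25 ± 0.11. Slc43a2 went from -0.24 ± 0.06 to -0.21 ± 0.08 and Slc6a6 from 0.27 ± 0.07 to 0.18 ± 0.08. With 2 kidneys Slc7a9 went from 0.19 ± 0.06 to 0.20 ± 0.07 and Slc6a13 from 0.39 ± 0.11 to 0.26 ± 0.11. The SEs of the SBH/y effects of Slc6a17 and Slc1a4 went from 0.08 to 0.13 and 0.07 to 0.10. For the carriers called for uninephrectomy, the values under that setting stand beside the results below. The labels give no time of day, and clock phase and uninephrectomy in SBH/y cannot be told apart beyond the single array of the other phase.

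**Figure D2:**
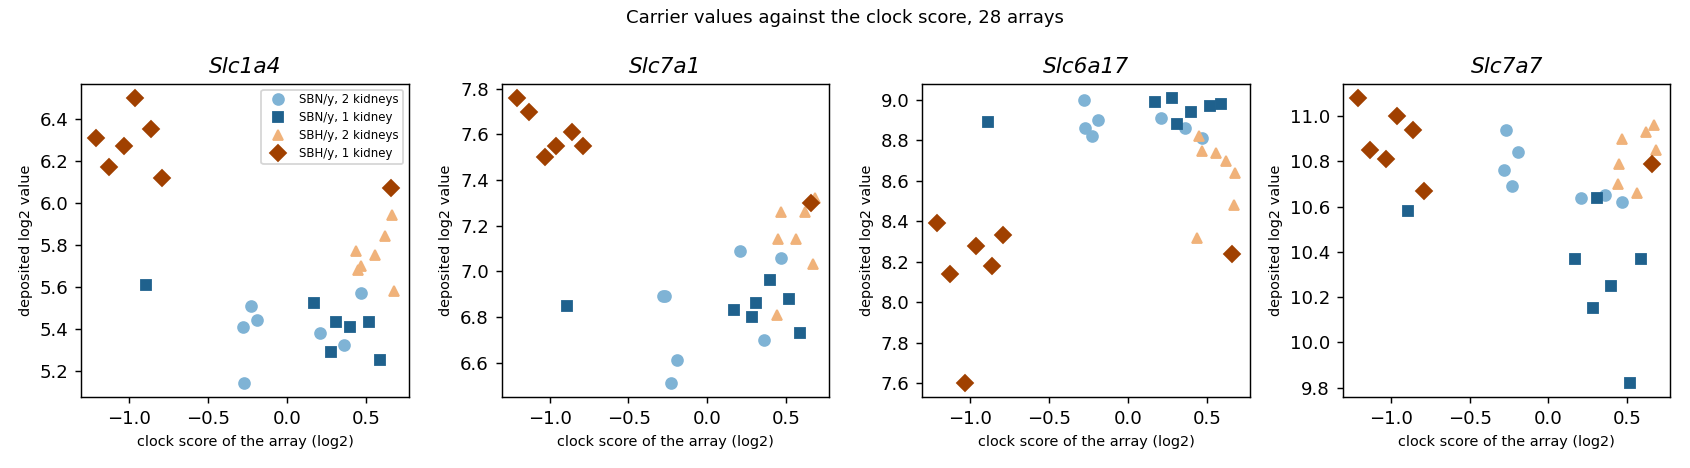
Log2 intensity of Slc1a4, Slc7a1, Slc6a17 and Slc7a7 (panels, y axis) against the clock score of each array (x axis, log2 units), with 7 points per group. 6 arrays of uninephrectomized SBH/y and 1 of uninephrectomized SBN/y have a score below -0.5.

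Of the 6 brush border carriers measured, Slc7a9 and Slc36a2 were called in at least 1 of the 5 comparisons, and the other 4 in none. With 2 kidneys both were called between the strains, 1 higher and 1 lower in SBH/y (11.8% and 9.69% of all genes), and between the uninephrectomized strains Slc7a9 was the one called. Slc3a1, the heavy chain of the cystine and dibasic amino acid carrier, lay at 13.1, 13.18 and 13.23 (lowest, median and highest) in SBN/y and at 13.18, 13.22 and 13.25 in SBH/y with 2 kidneys. After uninephrectomy it lay at 13.12, 13.18 and 13.22 in SBN/y and at 13.15, 13.21 and 13.25 in SBH/y. All 4 groups overlapped, and no difference of Slc3a1 was called, the largest being 0.04 ± 0.03 (adjusted p = 0.455) between the uninephrectomized strains.

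Slc7a9, the light chain that Slc3a1 carries to the brush border and the gene of a form of cystinuria, did move. It lay at 10.26, 10.39 and 10.64 in SBN/y with 2 kidneys, and at 9.91, 10.14 and 10.25 after uninephrectomy, with every uninephrectomized array below every array with 2 kidneys. In SBH/y it lay at 10.48, 10.59 and 10.77 with 2 kidneys and at 10.43, 10.66 and 10.69 after uninephrectomy, so those groups overlapped throughout. Slc7a9 fell by 0.29 ± 0.06 in SBN/y after uninephrectomy (adjusted p = 0.0264), a 1.23-fold lower signal, and differed by 0.02 ± 0.06 in SBH/y (adjusted p = 0.921). The difference between these effects, 0.31 ± 0.09, was not called (adjusted p = 0.0716). It was called under quantile normalization (0.31, adjusted p = 0.0452) and without the dimmest probe sets (adjusted p = 0.0445). Trend and robust eBayes (adjusted p = 0.0395) and a replicate block (adjusted p = 0.0351) called it too. Median centring and the clock covariate did not call it. SBH/y was higher than SBN/y by 0.19 ± 0.06 with 2 kidneys (adjusted p = 0.0346) and by 0.50 ± 0.06 after uninephrectomy (adjusted p = 2.69e-07). The call with 2 kidneys was lost under quantile normalization (0.16, adjusted p = 0.0544), without the arrays of the opposite clock phase (0.19, adjusted p = 0.0505) and in 8 of the 28 fits that left out 1 array. The fall of Slc7a9 in SBN/y was -0.29 (adjusted p = 0.0333) with the clock covariate. It was not called with only the 2 groups compared (-0.29, adjusted p = 0.0898) or without the arrays of the opposite clock phase (-0.3). Slc7a9 in SBN/y lost its call without replicate 3 or 7 with 2 kidneys, or replicate 2 or 7 after uninephrectomy.

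The other carriers of this membrane were not called or were dim. Slc1a1, the glutamate and aspartate carrier, lay at 9.7, 9.74 and 9.9 in SBN/y and 9.62, 9.76 and 9.88 in SBH/y with 2 kidneys. It lay at 9.59, 9.76 and 9.88 and at 9.73, 9.76 and 9.86 after uninephrectomy, and its 5 differences were between -0.01 and 0.05. Slc7a13, a carrier of acidic amino acids and cystine in the straight proximal tubule, lay at 12.49, 12.74 and 12.81 in SBN/y and 12.68, 12.7 and 12.84 in SBH/y with 2 kidneys. After uninephrectomy Slc7a13 lay at 12.58, 12.77 and 12.89 and at 12.56, 12.69 and 12.74. No difference of Slc7a13 was called, and its effect of uninephrectomy in SBH/y was -0.05 ± 0.05 (adjusted p = 0.643). In the same comparison all 4 markers of the straight proximal tubule fell, with a median difference of -0.46, and 1 of the 4 was called with the clock covariate.

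Slc6a18, a carrier of glycine and other neutral amino acids, lay at 10.39, 10.48 and 10.66 in SBN/y and at 10.55, 10.63 and 10.65 in SBH/y with 2 kidneys. After uninephrectomy it lay at 10.41, 10.55 and 10.67 and at 10.6, 10.65 and 10.76. The strain difference of Slc6a18 was 0.11 ± 0.05 (adjusted p = 0.119) and 0.12 ± 0.05 (adjusted p = 0.0683), neither called. Slc36a2, a proton-coupled carrier of glycine and proline, was dim in all 4 groups. It lay at 4.17, 4.57 and 4.83 in SBN/y and 4.09, 4.24 and 4.51 in SBH/y with 2 kidneys, and at 4.27, 4.4 and 4.59 and 4.02, 4.4 and 4.65 after uninephrectomy. Slc36a2 was called lower in SBH/y with 2 kidneys (-0.28 ± 0.09, adjusted p = 0.0287), a difference between values under the array medians. This call was lost with only the 2 groups compared (adjusted p = 0.0532) and in 5 of the 28 fits that left out 1 array.

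At the basolateral membrane, 1 of 6 carriers was higher and 2 were lower in SBH/y than in SBN/y with 2 kidneys (11.8% and 9.69% of all genes). Between the uninephrectomized strains 3 were higher and 1 lower in SBH/y (14.9% and 11.9% of all genes). Uninephrectomy itself lowered 1 in each strain, Slc7a7 in SBN/y (0.317% of all genes lower) and Slc7a8 in SBH/y (5.51% of all genes lower), and none was called higher. The largest difference of all 50 carriers was that of Slc38a3, which takes glutamine into proximal tubule cells, where it feeds the making of ammonia. Slc38a3 lay at 7.03, 7.57 and 7.88 in SBN/y and at 8.5, 8.6 and 9.04 in SBH/y with 2 kidneys. After uninephrectomy it lay at 7.59, 7.74 and 8.04 in SBN/y and at 8.48, 9.0 and 9.18 in SBH/y. Every SBH/y array stood above every SBN/y array. The means of Slc38a3 were 7.52 ± 0.27 and 8.64 ± 0.18 with 2 kidneys and 7.79 ± 0.17 and 8.9 ± 0.24 after uninephrectomy (SD, n = 7). Slc38a3 was higher in SBH/y by 1.12 ± 0.11 with 2 kidneys (adjusted p = 1.6e-09, 2.17-fold) and by 1.11 ± 0.11 after uninephrectomy (adjusted p = 1.75e-09, 2.15-fold). Its difference after uninephrectomy was 0.27 ± 0.11 in SBN/y (adjusted p = 0.397) and 0.26 ± 0.11 in SBH/y (adjusted p = 0.145), and neither was called.

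Slc7a7, the light chain that with Slc3a2 lets dibasic amino acids out to the blood, fell in SBN/y after uninephrectomy. It lay at 10.62, 10.69 and 10.94 in SBN/y with 2 kidneys and at 9.82, 10.37 and 10.64 after uninephrectomy, where the ranges just overlapped. In SBH/y it lay at 10.66, 10.85 and 10.96 with 2 kidneys and at 10.67, 10.85 and 11.08 after uninephrectomy. Slc7a7 fell by 0.42 ± 0.09 in SBN/y (adjusted p = 0.023, 1.34-fold) and differed by 0.05 ± 0.09 in SBH/y (adjusted p = 0.802). The difference between the effects was 0.47 ± 0.13 (adjusted p = 0.0489), at the edge of the threshold. With the clock covariate the fall in SBN/y was -0.39 (adjusted p = 0.0273) and the difference between the effects 0.23 (adjusted p = 0.998). That difference lost its call in 22 of the 28 fits that left out 1 array. The call in SBN/y was lost without SBN/y replicate 3 with 2 kidneys or replicate 7 after uninephrectomy. It was also lost with only the 2 groups compared (-0.42, adjusted p = 0.0947). Between the uninephrectomized strains every SBH/y array stood above every SBN/y array, by 0.57 ± 0.09 in the mean (adjusted p = 1e-05).

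Slc3a2, the heavy chain of this pair and of Slc7a8, lay at 10.58, 10.73 and 10.9 in SBN/y and 10.7, 10.83 and 10.94 in SBH/y with 2 kidneys. After uninephrectomy it lay at 10.38, 10.59 and 10.63 and at 10.59, 10.75 and 10.88. Slc3a2 was higher in SBH/y after uninephrectomy by 0.19 ± 0.05 (adjusted p = 0.00873), where the groups overlapped slightly, and by 0.10 ± 0.05 with 2 kidneys (adjusted p = 0.231). Slc7a8, the light chain for neutral amino acids, lay at 8.71, 8.82 and 9.08 in SBN/y and 8.76, 8.95 and 9.08 in SBH/y with 2 kidneys, and at 8.41, 8.55 and 8.78 and 8.48, 8.69 and 8.87 after uninephrectomy. The median of Slc7a8 was lower after uninephrectomy in both strains, with overlap. It differed by -0.28 ± 0.07 in SBN/y (adjusted p = 0.0605, not called) and fell by 0.24 ± 0.07 in SBH/y (adjusted p = 0.0289), and the difference between the effects was 0.04 ± 0.10 (adjusted p = 0.935). With the clock covariate the effect in SBH/y was -0.22 (adjusted p = 0.603), and leaving out any of 6 arrays also ended its call.

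Slc43a2, a carrier of branched-chain and aromatic amino acids, was lower in SBH/y in both comparisons. It lay at 8.77, 8.93 and 9.08 in SBN/y and 8.6, 8.72 and 8.88 in SBH/y with 2 kidneys, and at 8.65, 8.83 and 9.01 and 8.48, 8.54 and 8.81 after uninephrectomy. The groups overlapped, and the differences of Slc43a2 were -0.19 ± 0.06 (adjusted p = 0.021) and -0.24 ± 0.06 (adjusted p = 0.00214). A second probe set of Slc43a2 gave -0.08 and -0.10, neither called. Slc7a6, a dim light chain of the same function as Slc7a7, lay at 5.61, 5.65 and 5.8 in SBN/y and 5.33, 5.51 and 5.57 in SBH/y with 2 kidneys. After uninephrectomy Slc7a6 lay at 5.35, 5.74 and 5.84 and at 5.49, 5.59 and 5.67. It was lower in SBH/y with 2 kidneys (-0.20 ± 0.06, adjusted p = 0.0111), and the difference after uninephrectomy, -0.13, was not called (adjusted p = 0.131).

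**Figure D3:**
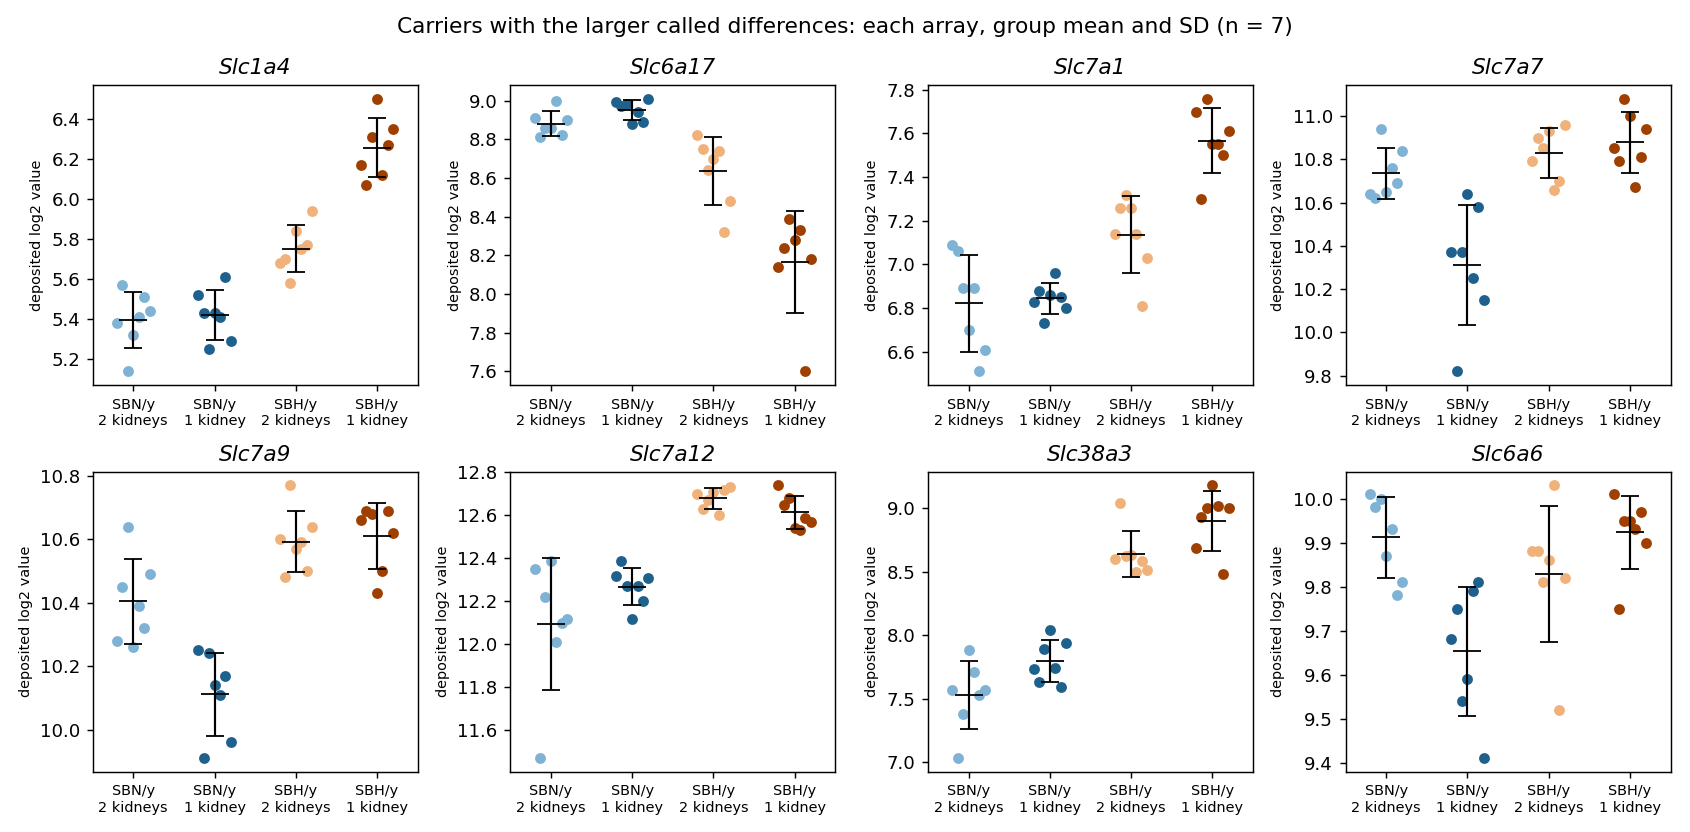
Log2 intensity of the named carriers (panels), 1 point per array with the group mean ± SD (n = 7), groups on the x axis. Slc38a3 separates the strains, Slc7a7 and Slc7a9 are lowest in uninephrectomized SBN/y, and Slc1a4 and Slc7a1 are highest in uninephrectomized SBH/y.

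Among the 9 carriers known to be induced through Atf4, 2 were higher in SBH/y with 2 kidneys and 4 after uninephrectomy, against 11.8% and 14.9% of all genes, and none was lower in either. Uninephrectomy raised 2 of them in SBH/y (4.85% of all genes) and in SBN/y none passed limma's test (1 of 9 at an unadjusted p below 0.05). Slc1a4, a carrier of alanine, serine and cysteine, lay at 5.14, 5.41 and 5.57 in SBN/y with 2 kidneys and at 5.25, 5.43 and 5.61 after uninephrectomy. In SBH/y it lay at 5.58, 5.75 and 5.94 with 2 kidneys and at 6.07, 6.27 and 6.5 after uninephrectomy. The uninephrectomized SBH/y arrays stood above all others, and the SBN/y groups, below the array medians, overlapped throughout. The means of Slc1a4 were 5.4 ± 0.14 and 5.42 ± 0.12 in SBN/y and 5.75 ± 0.11 and 6.26 ± 0.15 in SBH/y (SD, n = 7), with 2 kidneys and after uninephrectomy in turn.

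Slc1a4 was higher in SBH/y by 0.36 ± 0.07 with 2 kidneys (adjusted p = 0.000259) and by 0.84 ± 0.07 after uninephrectomy (adjusted p = 4.89e-11, 1.79-fold). It rose by 0.50 ± 0.07 after uninephrectomy in SBH/y (adjusted p = 1.49e-05, 1.42-fold), and its difference in SBN/y was 0.02 ± 0.07 (adjusted p = 0.977). These effects differed from each other by 0.48 ± 0.10 (adjusted p = 0.00855). With the clock covariate the Slc1a4 rise in SBH/y was 0.36 (adjusted p = 0.127) and the difference between effects 0.32 (adjusted p = 0.925). The 1 uninephrectomized SBH/y array of the other clock phase read 6.07, lowest of its group and above the highest SBH/y array with 2 kidneys.

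Slc7a1, the main carrier by which cells take up arginine and lysine, followed the same order. It lay at 6.51, 6.89 and 7.09 in SBN/y and at 6.81, 7.14 and 7.32 in SBH/y with 2 kidneys. After uninephrectomy it lay at 6.73, 6.85 and 6.96 in SBN/y and at 7.3, 7.55 and 7.76 in SBH/y. Slc7a1 was higher in SBH/y by 0.31 ± 0.08 with 2 kidneys (adjusted p = 0.00633) and by 0.72 ± 0.08 after uninephrectomy, without overlap (adjusted p = 4.15e-08, 1.65-fold). It rose by 0.43 ± 0.08 after uninephrectomy in SBH/y (adjusted p = 0.00086) and differed by 0.02 ± 0.08 in SBN/y (adjusted p = 0.984). The difference between these effects, 0.41 ± 0.12, was not called (adjusted p = 0.0701). It was called under quantile normalization (0.42, adjusted p = 0.032), without the dimmest probe sets (adjusted p = 0.046) and with a replicate block (adjusted p = 0.0373). Median centring, trend and robust eBayes, and the clock covariate did not call it. A second probe set of Slc7a1 gave a rise of 0.32 in SBH/y (adjusted p = 0.00513) and a strain difference of 0.23 after uninephrectomy (adjusted p = 0.0217), but 0.00 between the strains with 2 kidneys. On that probe set the difference between the effects was 0.23, not called (adjusted p = 0.361). With the clock covariate the Slc7a1 rise in SBH/y was 0.36 (adjusted p = 0.327), and the array of the other phase read 7.30, within the range of SBH/y with 2 kidneys.

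Of the other carriers induced through Atf4, Slc3a2 (above) and Slc38a2 were called between the uninephrectomized strains. Slc38a2, a sodium-coupled carrier of neutral amino acids, was higher in uninephrectomized SBH/y than SBN/y by 0.24 ± 0.09 (adjusted p = 0.046), a call lost in 17 of the 28 fits that left out 1 array. Slc1a5, Slc6a9, Slc7a3, Slc7a5 and Slc7a11 were not called in any comparison. Of these Slc7a3, Slc7a5 and Slc7a11 were dim, with means of 3.74, 5.23 and 3.79. Over the 9 carriers the median difference was 0.14 for uninephrectomy in SBH/y and -0.02 in SBN/y, against 0.01 and -0.00 over all genes. Of 4 cationic amino acid carriers, Slc7a1 was the one called, and Slc7a2, Slc7a3 and Slc7a4 were dim.

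Promoters were searched for 3 motifs on both strands, since Slc1a4 and Slc7a1, both of this group, rose in the same comparison. RefSeq windows on the rat build GRCr8, from 250 bases before to 50 after the start of transcription, were available for 42 of the 50 carriers. The amino acid response motif TGATGNAA, read by Atf4 with a partner, was found in 3 of 42 (7.14%: Slc1a4, Slc7a1 and Slc38a1), against 3.98% of 33469 promoters. The antioxidant response core TGACNNNGC was found in 8 of 42 (19.0%), against 12.1% of all promoters. The motif of HNF1, a factor of the proximal tubule, was found in none of 42 and in 1 of all promoters. The promoters of the 4 carriers that were called in a uninephrectomy effect or in the difference between effects and held a motif are shown, 5′ to 3′, with matches to either motif in capitals. They lie at chr14:98761513-98761812 on the minus strand (Slc1a4), chr12:11664238-11664537 on the plus strand (Slc7a1), chr4:125752252-125752551 on the plus strand (Slc6a6) and chr15:31835634-31835933 on the minus strand (Slc7a7).
Slc1a4: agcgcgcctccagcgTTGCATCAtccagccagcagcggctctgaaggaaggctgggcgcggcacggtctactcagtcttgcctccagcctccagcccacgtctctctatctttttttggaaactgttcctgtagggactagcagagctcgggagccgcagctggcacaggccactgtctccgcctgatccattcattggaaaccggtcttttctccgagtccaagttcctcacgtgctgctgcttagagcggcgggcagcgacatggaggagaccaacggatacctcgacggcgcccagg
Slc7a1: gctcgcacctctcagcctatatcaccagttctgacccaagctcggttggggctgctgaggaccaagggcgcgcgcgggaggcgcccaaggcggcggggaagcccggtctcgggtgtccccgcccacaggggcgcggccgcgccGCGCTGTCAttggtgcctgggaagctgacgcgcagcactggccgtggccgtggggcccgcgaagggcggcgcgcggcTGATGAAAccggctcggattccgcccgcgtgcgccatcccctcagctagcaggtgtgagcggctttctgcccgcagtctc
Slc6a6: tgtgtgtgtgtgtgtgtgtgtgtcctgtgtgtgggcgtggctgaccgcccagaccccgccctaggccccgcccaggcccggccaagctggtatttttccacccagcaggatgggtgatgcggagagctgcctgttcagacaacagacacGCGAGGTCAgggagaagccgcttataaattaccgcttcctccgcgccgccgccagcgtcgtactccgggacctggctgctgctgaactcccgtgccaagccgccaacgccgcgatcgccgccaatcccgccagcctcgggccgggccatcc
Slc7a7: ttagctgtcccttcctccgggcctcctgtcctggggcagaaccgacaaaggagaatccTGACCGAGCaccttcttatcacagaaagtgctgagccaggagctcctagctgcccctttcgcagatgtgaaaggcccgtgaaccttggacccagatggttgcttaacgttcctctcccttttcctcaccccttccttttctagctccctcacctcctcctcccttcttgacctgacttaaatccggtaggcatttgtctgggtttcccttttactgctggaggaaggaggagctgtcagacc
The Slc1a4 match to TGATGNAA begins at -235 from the start and reads TTGCATCA, the motif on the opposite strand. Slc7a1 holds TGATGAAA at -30 and, on the opposite strand, the antioxidant core at -107. Slc6a6 and Slc7a7 hold the antioxidant core alone, at -101 and -192. A match describes the letters and not binding.

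Atf4 targets that are not carriers were read in the same comparisons. Of 23, 9 were higher and 1 lower in SBH/y with 2 kidneys, and 14 higher and 1 lower after uninephrectomy, with medians of 0.15 and 0.21 against -0.01 and 0.00 over all genes. Of all genes, 11.8% and 14.9% were higher and 9.69% and 11.9% lower. Asns, asparagine synthetase, was higher by 1.0 ± 0.08 (adjusted p = 5.46e-11) and 1.45 ± 0.08 (adjusted p = 8.99e-15). Uninephrectomy raised 9 and lowered 1 in SBH/y (4.85% and 5.51% of all genes), and raised 1 and lowered 1 in SBN/y (0.288% and 0.317% of all genes). Under the clock covariate 1 of the 23 was called in SBH/y, Atf3 at 0.50 (adjusted p = 0.0471), and 8 had an unadjusted p below 0.05. In SBH/y Mthfd2, a mitochondrial folate enzyme, rose by 0.70 ± 0.09 (adjusted p = 4.01e-06) and Atf4 itself by 0.30 ± 0.06 (adjusted p = 0.00165). The effects differed between the strains for Atf3, Asns, Mthfd2 and Aldh18a1, by 0.48, 0.45, 0.59 and 0.52, each higher in SBH/y (0.964% of all genes). With the covariate the Mthfd2 difference in SBH/y was 0.44 (adjusted p = 0.109), and limma called 0 of the 23 for the difference between the effects (5 at an unadjusted p below 0.05).

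Slc6a6, the taurine carrier by which cells adjust their osmolyte content, was the one of both osmolyte and creatine carriers called on its main probe set. It lay at 9.78, 9.93 and 10.01 in SBN/y with 2 kidneys and at 9.41, 9.68 and 9.81 after uninephrectomy. In SBH/y it lay at 9.52, 9.86 and 10.03 with 2 kidneys and at 9.75, 9.95 and 10.01 after uninephrectomy. Uninephrectomized SBN/y held the low values, overlapping its control group slightly. Slc6a6 differed by -0.26 ± 0.07 in SBN/y (adjusted p = 0.0734, not called) and by 0.09 ± 0.07 in SBH/y (adjusted p = 0.452), and the difference between the effects was 0.35 ± 0.09 (adjusted p = 0.0498). A second probe set of Slc6a6 gave -0.32 in SBN/y (adjusted p = 0.0114) and 0.45 between the effects (adjusted p = 0.00541). With the clock covariate the first probe set gave 0.22 (adjusted p = 0.998), and 22 of the 28 fits without 1 array lost its call. Between the uninephrectomized strains SBH/y was higher by 0.27 ± 0.07 (adjusted p = 0.00252). Slc6a8, the creatine carrier, was not called on its main probe set (0.10 and 0.09 between the strains), while a second gave 0.25 and 0.31, both called.

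Of 12 measured neurotransmitter carriers, 3 were called with 2 kidneys, 1 higher and 2 lower in SBH/y, against 11.8% and 9.69% of all genes. Slc6a17, known as a vesicular carrier of neutral amino acids in neurons, fell in SBH/y after uninephrectomy. It lay at 8.81, 8.86 and 9.0 in SBN/y with 2 kidneys and at 8.88, 8.97 and 9.01 after uninephrectomy, which overlapped. In SBH/y it lay at 8.32, 8.7 and 8.82 with 2 kidneys and at 7.6, 8.24 and 8.39 after uninephrectomy. Slc6a17 fell by 0.47 ± 0.08 in SBH/y (adjusted p = 0.000326, 1.38-fold), differed by 0.07 ± 0.08 in SBN/y (adjusted p = 0.915), and the effects differed by -0.54 ± 0.12 (adjusted p = 0.0131). The strain difference was -0.25 ± 0.08 with 2 kidneys (adjusted p = 0.0338) and -0.79 ± 0.08 after uninephrectomy, without overlap (adjusted p = 7.72e-09). The first of these calls was lost in 6 of the 28 fits that left out 1 array.

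The other probe sets of Slc6a17 bear on this reading. The second, with a mean of 6.4, gave -0.19 in SBH/y after uninephrectomy (adjusted p = 0.0121) and -0.25 between the effects, not called (adjusted p = 0.0677). The remaining 3, dim with means of 5.46, 4.65 and 4.58, gave no call. The fall in SBH/y was -0.42 (adjusted p = 0.19) with the clock covariate. Replicate 6 of uninephrectomized SBH/y held the lowest value, and without it the fall was -0.38 and the difference between effects -0.45, both called. All 5 nerve markers were dim, and the mean of that list stayed between 4.05 and 4.43 in all 28 arrays.

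**Figure D4:**
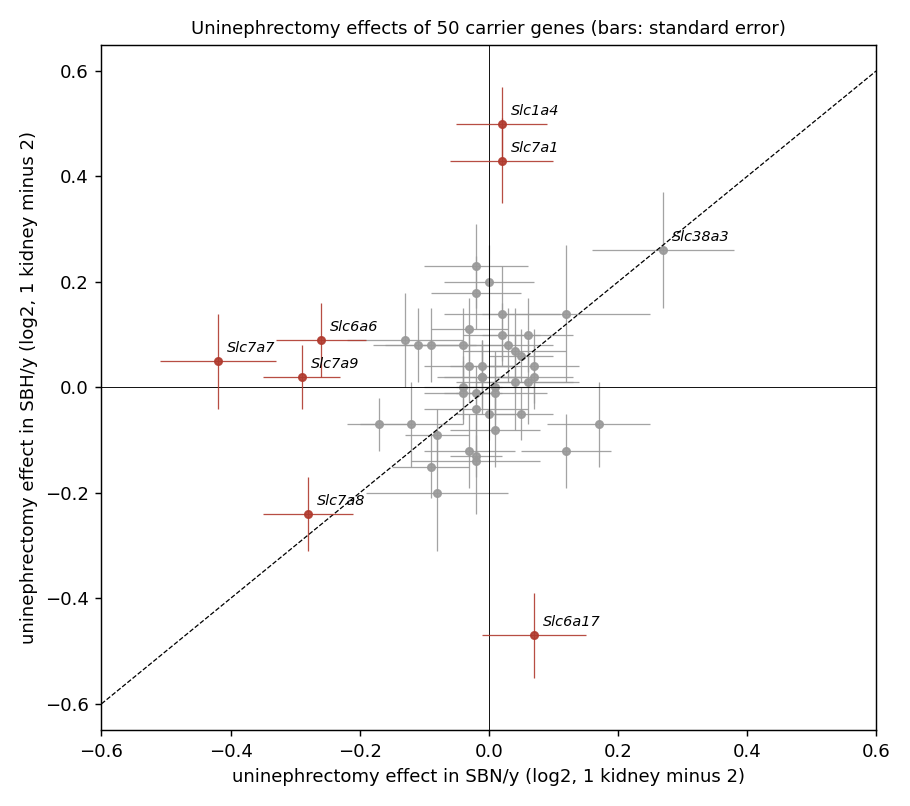
Effect of uninephrectomy on each carrier in SBN/y (x axis) and in SBH/y (y axis), in log2 units. Slc7a7, Slc7a9 and Slc6a6 lie to the left of 0, Slc1a4 and Slc7a1 above it and Slc6a17 below it. Slc7a8 lies both to the left of 0 and below it, at -0.28 in SBN/y and -0.24 in SBH/y. Both axes carry error from different arrays.

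Slc6a13, which carries GABA and taurine and is found in proximal tubule, was higher in SBH/y with 2 kidneys. It lay at 7.1, 7.52 and 7.73 in SBN/y and 7.42, 7.82 and 8.09 in SBH/y with 2 kidneys, and at 7.1, 7.36 and 7.55 and 7.29, 7.57 and 8.06 after uninephrectomy. The strain difference of Slc6a13 was 0.39 ± 0.11 (adjusted p = 0.0111) and, after uninephrectomy, 0.27 ± 0.11 (adjusted p = 0.0767, not called), with overlap in both. Slc6a7, the proline carrier of brain, was dim and called lower in SBH/y with 2 kidneys (-0.22 ± 0.07, adjusted p = 0.0393), a call lost without any of 9 arrays.

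Slc7a12, a carrier of small neutral amino acids, was called between the strains both with 2 kidneys and after uninephrectomy. It lay at 11.47, 12.12 and 12.39 in SBN/y and at 12.6, 12.7 and 12.73 in SBH/y with 2 kidneys. After uninephrectomy it lay at 12.12, 12.27 and 12.39 in SBN/y and at 12.53, 12.59 and 12.74 in SBH/y. No SBN/y array reached an SBH/y array. Slc7a12 was higher in SBH/y by 0.59 ± 0.08 with 2 kidneys (adjusted p = 3.01e-06, 1.5-fold) and by 0.35 ± 0.08 after uninephrectomy (adjusted p = 0.00235). The first difference rested in part on SBN/y replicate 2, and without it was 0.48 (adjusted p = 6.81e-08). The change in the strain difference, -0.24 ± 0.12, was not called (adjusted p = 0.425).

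In family 38, Slc38a3 and Slc38a2 were called higher and Slc38a1 lower in uninephrectomized SBH/y, of 9 measured (14.9% and 11.9% of all genes). Slc38a1, a carrier of glutamine and alanine, lay at 6.44, 6.54 and 6.79 in SBN/y and at 6.04, 6.31 and 6.45 in SBH/y after uninephrectomy, with a difference of -0.35 ± 0.07 (adjusted p = 0.000281). Its second probe set was called lower in SBH/y in both strain comparisons (-0.31 and -0.32). The proton-coupled family 36 had no call other than that of Slc36a2, of 3 measured. In all, 33 of the 50 carriers were called in no comparison, with differences between -0.20 and 0.25. Of these 22 were dim and 11 were brighter: Slc1a1, Slc1a5, Slc3a1, Slc6a8, Slc6a9, Slc6a18, Slc7a13, Slc36a1, Slc38a6, Slc38a7 and Slc38a10. Within groups the SD of a carrier had a median of 0.12 to 0.13.

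Partner genes were compared array by array within groups: 5 pairs of a heavy and a light chain, and Slc6a18 with Cltrn, which brings it to the surface. Over 6 pairs and 4 groups (24 tests, n = 7 each) Pearson's r ran from -0.65 to 0.83, and by exact permutation test, two-sided, 2 had an unadjusted p below 0.05 and 0 an adjusted p below 0.05 (lowest 0.288; for Spearman's rho 0.571). Slc3a2 and Slc7a7 gave r of 0.83 (exact p = 0.0196, rho 0.68, exact p = 0.11) in SBN/y with 2 kidneys. Without the 2 arrays farthest from the Slc3a2 median r was 0.74. Slc3a2 and Slc7a8 gave r of 0.82 there (exact p = 0.024, rho 0.75, exact p = 0.0663), and 0.86 without 2 arrays. Slc3a2 and Slc7a5, a dim gene, ran the other way in that group, with r of -0.65 (exact p = 0.105), rho of -0.86 (exact p = 0.0238) and r of -0.55 without 2 arrays. In uninephrectomized SBN/y, SBH/y with 2 kidneys and uninephrectomized SBH/y, r of Slc3a2 with Slc7a7 was 0.67, 0.48 and 0.75. Without 2 arrays it was -0.53, 0.38 and 0.06. For Slc3a2 with Slc7a8, r in these groups was 0.59, -0.06 and 0.59. Without 2 arrays it was -0.44, -0.18 and 0.75. No relation passed the adjusted threshold in these groups of 7.

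Enzymes and partners around the carriers were read in the same way. Of 36 measured genes of renal amino acid metabolism, 6 were higher and 8 lower in SBH/y with 2 kidneys, and 7 higher and 11 lower after uninephrectomy. Together 14 and 18 of the 36 were called, against 21.5% and 26.8% of all genes. Agmat, agmatinase, was higher in SBH/y by 1.44 ± 0.06 (adjusted p = 1.62e-18) and 1.53 ± 0.06 (adjusted p = 3.74e-19). Gpt, an alanine aminotransferase, was lower, with differences of -0.92 ± 0.09 (adjusted p = 5.47e-09) and -1.13 ± 0.09 (adjusted p = 6.18e-11). Cdo1, which starts the path from cysteine to taurine, was lower too, with -0.70 ± 0.07 and -0.85 ± 0.07. Uninephrectomy lowered 3 in SBN/y (Ddc, Agxt2 and Cbs), against 0.317% of all genes. In SBH/y it raised 1 and lowered 5, against 4.85% and 5.51% of all genes. Ddc, which makes dopamine in the proximal tubule, fell in both, by 0.43 ± 0.09 in SBN/y (adjusted p = 0.0256) and 0.41 ± 0.09 in SBH/y (adjusted p = 0.00329). Ddc under the clock covariate gave -0.44 (adjusted p = 0.026) and -0.34 (adjusted p = 0.457), and limma called 0 of the 36 in SBH/y (8 at an unadjusted p below 0.05). For the difference between the effects limma called 0 of the 36 (5 at an unadjusted p below 0.05).

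Of 17 measured partners and relatives, 1 was higher and 4 lower in SBH/y with 2 kidneys, and 2 higher and 3 lower after uninephrectomy. These 5 of 17 in each comparison lie near the 21.5% and 26.8% of all genes. By limma 0 were called for uninephrectomy in either strain (4 in SBN/y and 5 in SBH/y at an unadjusted p below 0.05). Slc66a1, the lysosomal exporter of lysine and arginine, was lower in SBH/y in both, with a difference of -0.27 ± 0.05 each time (adjusted p = 7.03e-05 and 4.94e-05). Cndp2, a dipeptidase, was lower as well (-0.28 ± 0.05 and -0.30 ± 0.05). Slc15a2, the high-affinity peptide carrier of the brush border, was higher with 2 kidneys by 0.23 ± 0.05 (adjusted p = 0.000625).

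Markers of cell types moved with some of the groups, and their part in the carriers' differences was not tested. The mean log2 level of 7 markers of the convoluted proximal tubule ran from 11.01 to 11.24 in SBN/y and 11.17 to 11.34 in SBH/y with 2 kidneys, and from 10.74 to 11.12 and 11.14 to 11.36 after uninephrectomy. Slc5a2, the glucose carrier among them, fell in SBN/y after uninephrectomy by 0.37 ± 0.07 (adjusted p = 0.0153, and 0.0146 with the clock covariate), in the comparison in which Slc7a7 and Slc7a9 fell. None of the other 6 was called there, though differences of the 7 ran from -0.39 to 0.13 (median -0.08). With the clock covariate limma gave 3 of the 7 an unadjusted p below 0.05 there. The 9 markers of injured tubule ran from 7.5 to 7.61 in SBH/y with 2 kidneys and from 7.97 to 8.58 after uninephrectomy, and 6 of them rose, Havcr1 by 2.79 ± 0.23 (adjusted p = 4.37e-09). Of these markers 4 were called with the clock covariate, Havcr1 at 2.74 (adjusted p = 0.00023). In SBN/y they ran from 7.56 to 7.81 and from 7.62 to 7.93. Macrophage markers, 7 in all, ran from 6.87 to 7.2 over both SBN/y groups and from 7.28 to 7.6 over both SBH/y groups. Fat markers ran from 6.2 to 7.41 in SBN/y and 5.93 to 6.43 in SBH/y with 2 kidneys. After uninephrectomy they ran from 5.85 to 7.45 and from 5.8 to 6.49, so the strains overlapped each time. Markers of the thick ascending limb ran from 10.15 to 10.33 in SBN/y and 9.86 to 9.99 in SBH/y with 2 kidneys. After uninephrectomy they ran from 10.27 to 10.49 and from 9.8 to 9.94. Markers of the distal tubule ran from 8.64 to 8.97 and 8.25 to 8.57 with 2 kidneys. After uninephrectomy they ran from 9.02 to 9.19 and 8.49 to 8.7, so neither list overlapped between the strains. In SBH/y podocyte markers ran from 8.03 to 8.14, and from 7.41 to 7.93 after uninephrectomy. The 4 adrenal markers measured were all dim.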

How the data were processed

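Total RNA from 28 kidney samples was labelled with biotin and read on 1-colour Affymetrix rat arrays, per the labels' protocols. The authors deposited log2 values of 31099 probe sets, and the submitters' processing notes name GCOS and RMA without versions. RMA corrects background, normalizes between arrays and summarises the probes of a set, which compresses small signals. The number of arrays, 7 in each group, limits the precision.

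The 57 control probe sets were left out and 31042 tested. Of these, 20826 had 1 gene symbol, 436 several and 9780 none; 20758 were matched by gene identifier to RefSeq's GRCr8 table. Each gene was read from its probe set of highest mean. Linear models with 1 mean per group over all 28 arrays were fitted in limma 3.58.1 under R 4.3.3, moderated with eBayes, and gave log2 differences with SEs, and p-values were adjusted by Benjamini-Hochberg over all probe sets tested; the threshold was 0.05. Named with values by group were carriers called with a log2 difference of at least 0.4 in size and those of the brush border and basolateral lists; other called carriers are named with their differences, a few also with group values. Of the other lists, some called genes of small p are named. The fit was tested on simulated data. The members and lists were chosen with earlier results of these data known.

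Alternatives were quantile normalization, median centring, leaving out the dimmest 40% of probe sets, trend and robust eBayes, only the 2 groups compared, the replicate number as a block, a second probe set, and leaving out each array. Both clock settings were added after seeing the data. Promoter motifs were counted in RefSeq windows.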

Additional observations from a re-analysis of the deposited data

Results flagged for a closer look

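The highest or lowest array of a group of 7 lay far from the others (gap over range above Dixon's 0.568) in 8 of 84 groups tested, and chance flags about 5% of groups. In SBN/y with 2 kidneys these were Slc1a1 in replicate 7 (9.9, the others 9.7 to 9.78), Slc6a7 in replicate 7 (5.02, the others 4.77 to 4.86) and Slc7a12 in replicate 2 (11.47, the others 12.01 to 12.39). In SBH/y with 2 kidneys they were Slc6a6 in replicate 6 (9.52, the others 9.81 to 10.03), Slc7a13 in replicate 1 (12.84, the others 12.68 to 12.73) and Slc38a3 in replicate 2 (9.04, the others 8.5 to 8.63). Slc7a6 in replicate 3 of uninephrectomized SBN/y read 5.35 against 5.68 to 5.84, and Slc6a17 in replicate 6 of uninephrectomized SBH/y read 7.6 against 8.14 to 8.39.

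The effect of uninephrectomy differed between the strains by a test of the difference itself (limma, adjusted over all probe sets) for Slc1a4 (0.48, adjusted p = 0.00855), Slc6a17 (-0.54, adjusted p = 0.0131), Slc7a7 (0.47, adjusted p = 0.0489) and Slc6a6 (0.35, adjusted p = 0.0498), each as SBH/y minus SBN/y. Clock phase differed between the same groups, and none of the 4 differences was called with the clock score as a covariate.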

How the results depend on the processing

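No alternative that was run turned the sign of a called value. Called carriers with 2 kidneys (11 between the strains) stayed within 9 and 12 in the settings other than leaving out an array, and ran from 7 to 12 without 1 array, the low value without SBN/y replicate 5 or SBH/y replicate 3. After uninephrectomy the 12 became 4 without the arrays of the opposite clock phase and 11 to 13 without 1 array. For uninephrectomy in SBN/y the 2 became 4 without the dimmest 40% of probe sets, 4 with trend and robust eBayes, 0 with only the 2 groups compared, 1 without the arrays of the opposite phase, and 0 to 3 without 1 array (0 without replicate 3 with 2 kidneys or replicate 7 after uninephrectomy, where 7 and 6 had an unadjusted p below 0.05, and 1 without replicate 7 with 2 kidneys or replicate 2 after uninephrectomy). For uninephrectomy in SBH/y the 4 became 0 with the clock score as a covariate and 0 without the arrays of the opposite phase, which leaves 1 array in that group, assumed to vary like the others, and 3 to 6 without 1 array. The 4 differences between effects became 2 with median centring, 0 with the clock covariate and 0 without the opposite phase, and 2 to 5 without 1 array, moving by over 1.5 times in 17 of 28 such fits. At an unadjusted p below 0.05, limma gave 6 carriers where only the 2 groups were compared, 3 (SBH/y) and 6 (difference between effects) without the opposite phase, and 7 and 6 with the clock covariate. The causes were not tested, other than that fewer arrays entered some fits. With the replicate number as a block the 4 called carriers for uninephrectomy in SBH/y became 7, and no other count moved by over 1.5 times. The check did not meet the rule for pairing, which asks every same-numbered pair to exceed 0.1: 42 same-numbered pairs correlated at -0.09 to 0.59 (median 0.16, 24 over 0.1) against a median of -0.03 for other pairs across groups, and 10 of 28 arrays correlated best with their own number, a hint from the data and not from the design. Signal near background limits the 26 dim carriers.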
